A study of Homo sapiens with 4 samples.

Results

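The genes examined were the collagens, the laminin chains and other structural genes of the basement membrane, taken as a list of 53 gene symbols out of 62218 genes in the matched annotation. The list held 38 collagen genes, 10 laminin chain genes, fibronectin (FN1), nidogens (NID1 and NID2) and the heparan sulfate proteoglycans perlecan (HSPG2) and agrin (AGRN). Their levels were compared between naïve hESCs and primed hESCs, human embryonic stem cells in an earlier and a later state of pluripotency, of the established wild-type H1 line, with 2 Nanopore cDNA libraries per state. Naïve hESCs were derived from the primed cells and kept in FINE medium, which holds kinase inhibitors (dasatinib, AZD5438, SB590885, PD0325901 and Y-27632) with LIF, Activin A and bFGF, in low oxygen. Primed hESCs were grown in mTeSR. The coating was Matrigel, itself an extract of mouse basement membrane, for primed hESCs and its reduced growth factor form for naïve hESCs, so that state, medium, inhibitors, oxygen and coating cannot be told apart. The labels do not say that replicates came from separate cultures, and p-values then measure only the spread between these libraries, which may be technical.

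A basement membrane is a thin sheet of matrix beneath epithelia. Laminins, each built of an alpha, a beta and a gamma chain, and type IV collagen form its networks, which nidogens and perlecan link. Fibrillar collagens, of which type I is the most abundant, form the fibres of connective tissue, and collagens of the FACIT class sit on the surface of such fibres. In the embryo, laminin and type IV collagen are among the first matrix proteins made, and pluripotent cells attach to laminin through integrins.

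Each value is the number of alignments over the span of a transcript, and the value of a gene is that of its transcript with the largest mean count. Counts are given in the order naïve rep1, naïve rep2, primed rep1 and primed rep2. CPM, the count relative to the library total, were scaled by TMM, a normalisation that assumes that most genes do not change. The summed gene counts ranged from 23542377 to 30978781 per library, and a floor of 3 counts came to 0.0968 to 0.1274 CPM before that scaling. TMM factors were 0.779 and 0.824 in the naïve libraries against 1.25 and 1.24 in the primed libraries. With TMM, markers of the naïve state were lower in primed hESCs for 8 of 8 genes and markers of the primed state were higher for 8 of 8. The smallest of these changes was that of KLF17, at a log2 fold change of -0.41 (2200, 2423, 2083 and 2236 counts). A change of that size depends on TMM, since library size in its place moved the median of all genes from 0.08 to 0.72.

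Of the 53 genes, 51 had enough counts to be tested and 43 passed a quasi-likelihood test in edgeR (adjusted p below 0.05), which is 84.3% of those tested against 70.0% of all 27633 genes tested. Higher levels in primed hESCs were called for 33 (64.7%, against 37.4% of all genes) and lower levels for 10 (19.6%, against 32.6%). The median log2 fold change, primed over naïve, was 1.44 over the members and 0.08 over all genes tested. The libraries of the states did not overlap in CPM for 46 of the 51 (90.2%, against 84.4% of all genes tested). When library size took the place of TMM, the median of all genes moved to 0.72, the calls among the members became 39 higher and 7 lower, and those among all genes became 56.2% higher and 16.3% lower.

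**Figure D1:**
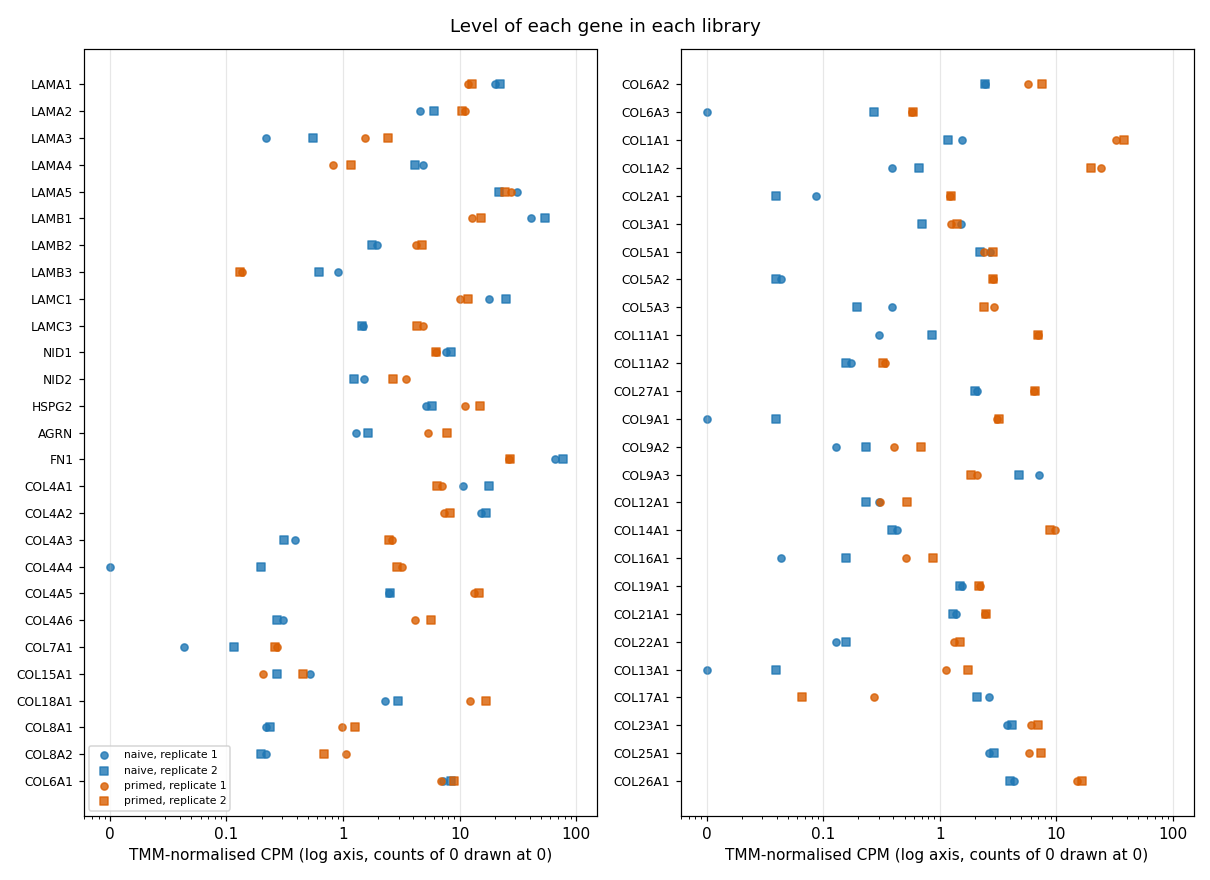
TMM-normalised CPM (horizontal log axis, counts of 0 drawn at the tick 0) of each of the 53 genes in each library, with naïve libraries in blue and primed libraries in orange, circles for replicate 1 and squares for replicate 2. FN1 and LAMB1 lie farthest right in blue, and COL1A1 and COL1A2 show the wide gap between blue and orange points that COL3A1 and COL5A1 do not.

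With TMM, the summed level of laminin chains was lower in primed hESCs and that of collagens was higher. Of the 10 laminin chains 4 rose and 5 fell in primed hESCs, and of the 36 collagens tested 26 rose and 4 fell. Of all genes tested, 37.4% rose and 32.6% fell. Laminin chains summed to 97.4 and 121 CPM in naïve hESCs against 62.9 and 71.4 CPM in primed hESCs, with the canonical transcript of each gene. LAMB1 alone held 41.3 and 54.1 CPM of the naïve sums and 12.7 and 15.3 CPM of the primed sums, so most of the difference was that of this chain. Collagens summed to 75.5 and 82.5 CPM in naïve hESCs against 196 and 214 CPM in primed hESCs. With library size in place of TMM the collagen sums kept their order (58.9 and 68.0 against 245 and 267), whereas the laminin sums overlapped (75.9 and 99.7 against 78.8 and 88.8). Per kilobase of exonic length, the highest levels in naïve hESCs were those of FN1 (8.47 ± 0.981 CPM per kb, SD, n = 2) and LAMB1 (8.44 ± 1.60), which did not differ beyond their spread, followed by LAMC1 (2.72 ± 0.639) and COL4A2 (2.50 ± 0.170). In primed hESCs the highest were COL1A1 (5.95 ± 0.726) and COL26A1 (5.32 ± 0.430), whose ranges of mean and SD overlapped. COL1A2 (4.31 ± 0.593) and FN1 (3.20 ± 0.0420) came next. Division by exonic length favours short transcripts, since each value counts alignments over a whole span, introns included. Without it the order changed. Mean CPM in primed hESCs were 35.2 for COL1A1, 26.9 for FN1, 21.8 for COL1A2 and 15.8 for COL26A1. In naïve hESCs they were 71.1 for FN1 and 47.7 for LAMB1.

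**Figure D2:**
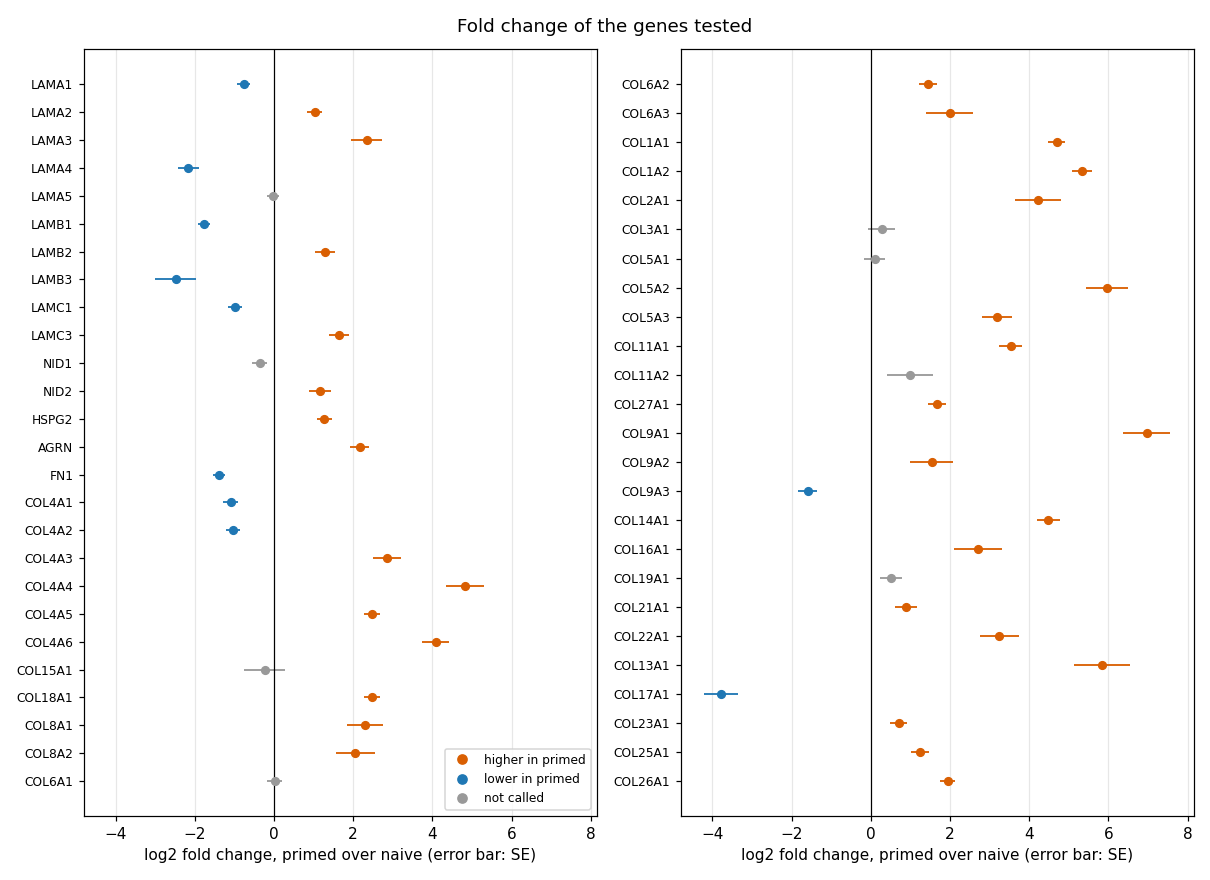
log2 fold change, primed over naïve, of the 51 genes tested, with its SE as the bar, orange for genes higher in primed hESCs, blue for lower and grey for not called. The SE here and in the text is the absolute log2 fold change divided by the square root of the test's F statistic. The 10 blue points are LAMA1, LAMA4, LAMB1, LAMB3, LAMC1, FN1, COL4A1, COL4A2, COL9A3 and COL17A1.

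The printed sequences belong to the type IV collagen genes, which lie head to head in pairs on opposite strands, because the members of each pair moved in the same direction. The starts of COL4A1 and COL4A2 are 127 bases apart on chromosome 13, those of COL4A3 and COL4A4 are 419 bases apart on chromosome 2, and those of COL4A5 and COL4A6-202 are 366 bases apart on chromosome X, with the canonical start of COL4A6 at a distance of 1416 bases. A window from RefSeq (GRCh38.p14) was matched by symbol for 40 of the 53 genes. The stretches below lie between the starts of a pair, read 5′ to 3′ on the strand of the first gene named. Capitals mark a GC box (GGGCGG) or a CCAAT box (CCAAT) on either strand, and no TATAAA was found in these stretches. COL4A1 to COL4A2 is chr13:110307158-110307283 on the minus strand, COL4A4 is chr2:227164206-227164455 on the minus strand, COL4A3 is chr2:227164374-227164623 on the plus strand, COL4A6 is chrX:108439473-108439708 on the minus strand and COL4A5 is chrX:108439588-108439837 on the plus strand.
COL4A1: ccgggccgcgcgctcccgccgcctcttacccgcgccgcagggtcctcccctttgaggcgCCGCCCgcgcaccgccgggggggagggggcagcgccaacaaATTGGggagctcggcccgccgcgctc
COL4A4: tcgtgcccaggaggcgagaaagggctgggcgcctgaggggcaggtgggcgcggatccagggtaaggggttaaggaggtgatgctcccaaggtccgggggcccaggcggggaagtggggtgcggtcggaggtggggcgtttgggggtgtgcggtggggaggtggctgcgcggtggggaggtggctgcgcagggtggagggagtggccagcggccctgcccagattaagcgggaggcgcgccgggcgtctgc
COL4A3: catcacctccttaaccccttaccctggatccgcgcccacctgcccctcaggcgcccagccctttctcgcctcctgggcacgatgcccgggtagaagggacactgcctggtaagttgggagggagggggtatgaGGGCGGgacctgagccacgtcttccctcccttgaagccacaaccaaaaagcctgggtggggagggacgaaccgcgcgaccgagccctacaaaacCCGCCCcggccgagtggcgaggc
COL4A6: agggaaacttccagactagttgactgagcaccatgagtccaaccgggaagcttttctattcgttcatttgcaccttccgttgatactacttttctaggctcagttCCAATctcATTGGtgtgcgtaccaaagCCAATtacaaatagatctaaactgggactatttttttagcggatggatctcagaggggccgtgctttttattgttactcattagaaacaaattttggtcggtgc
COL4A5: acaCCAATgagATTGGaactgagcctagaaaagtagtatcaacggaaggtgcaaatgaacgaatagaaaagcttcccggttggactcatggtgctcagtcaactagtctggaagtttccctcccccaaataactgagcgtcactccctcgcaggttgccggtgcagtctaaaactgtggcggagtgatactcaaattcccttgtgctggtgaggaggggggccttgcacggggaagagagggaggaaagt
The COL4A1 stretch of 126 bases held 80.2% G and C, 1 GC box and 1 CCAAT box, and the same part of 34943 RefSeq windows held a GC box in 34.5% and a CCAAT box in 21.1%. The COL4A3 stretch held 66.4% G and C and 2 GC boxes, and that of COL4A4 held 72.8% and neither motif. The COL4A5 and COL4A6 stretches, which overlap, held 51.2% and 42.4% G and C, no GC box, and 2 and 3 CCAAT boxes. Over 250 bases upstream, 42.5% of all windows held a GC box and 32.0% a CCAAT box. These are matches of letters only.

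COL4A1 and COL4A2, whose chains form the type IV collagen network of nearly all basement membranes, were lower in primed hESCs. COL4A1 had 246, 455, 207 and 196 counts. The naïve libraries lay above the primed libraries in CPM, but differed from each other more than the primed libraries did, and the log2 fold change was -1.09 (SE 0.19, adjusted p = 2.82e-06). COL4A2 had 354, 431, 216 and 256 counts, without overlap in CPM, and a log2 fold change of -1.04 (SE 0.17, adjusted p = 7.14e-07). With library size in place of TMM these became -0.46 (adjusted p = 0.0583) and -0.40 (adjusted p = 0.0376), so the call of COL4A1 was lost there. Transcript COL4A2-202, which reaches across the COL4A1 span on the other strand, had 87.0% as many counts as COL4A1. Without strand its alignments there cannot be told from those of COL4A1. COL4A2-AS1 and COL4A2-AS2, inside the span counted for COL4A2, held 13.6% and 11.2% of the COL4A2 count. On spans with no other gene the values were -0.91 for COL4A1 and -2.12 for COL4A2.

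The other chains of type IV collagen rose in primed hESCs. COL4A3, COL4A4 and COL4A5 encode the chains of the network of the kidney glomerulus, and COL4A6 is a chain of the membrane beneath smooth muscle and skin. COL4A3 had 9, 8, 77 and 76 counts and COL4A4 had 0, 5, 94 and 89. Both were near the floor in naïve hESCs and well above it in each primed library, at log2 fold changes of 2.85 (SE 0.36, adjusted p = 4.08e-09) and 4.83 (SE 0.48, adjusted p = 5.51e-12). The fitted value of COL4A4 rests on few naïve counts, and without naïve rep1, which had 0, it was 3.93. Inside the COL4A3 span, MFF-DT-207 held 57.6% as many counts as COL4A3 itself, MFF-DT-216, across the span, had far more (600, 579, 868 and 837), and no COL4A3 transcript was free of another gene.

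COL4A5 had 57, 65, 389 and 452 counts, all primed above all naïve, and a log2 fold change of 2.48 (SE 0.20, adjusted p = 1.03e-14), or 1.55 (adjusted p = 0.000199) for the shortest transcript at the 3′ end. COL4A6 had 7, 7, 123 and 176 counts and a log2 fold change of 4.08 (SE 0.35, adjusted p = 6.04e-14). Per kilobase, COL4A5 rose from 0.384 ± 0.00830 to 2.14 ± 0.165 CPM per kb and stood above COL4A2 (1.22 ± 0.111) and COL4A1 (1.03 ± 0.0692) in primed hESCs, whereas COL4A2 and COL4A1 were the highest of the 6 in naïve hESCs. The plot of levels per kilobase shows this change of order.

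**Figure D3:**
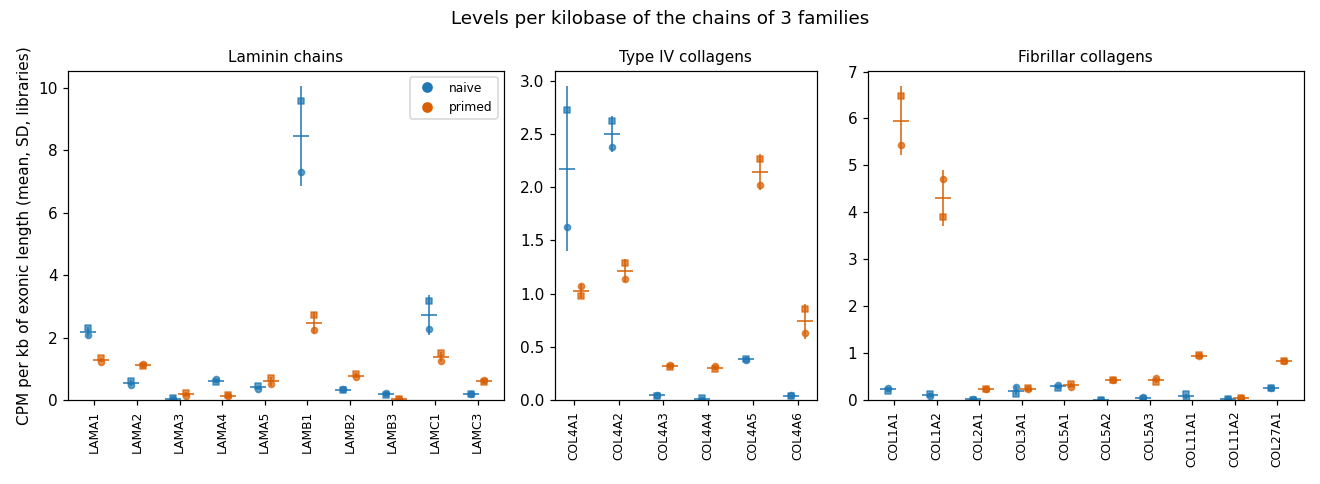
CPM per kilobase of exonic length (vertical linear axis from 0, a different scale in each panel) of laminin chains, type IV collagens and fibrillar collagens, with points for libraries, dashes for the mean and bars for the SD, n = 2 per state. LAMB1 in naïve hESCs and COL1A1 and COL1A2 in primed hESCs stand above the other chains of their panels, and COL4A5 passes COL4A1 and COL4A2 in primed hESCs.

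Among laminins, the chains that make up laminin-111, the laminin of early embryos, were each lower in primed hESCs. LAMA1, the alpha chain, had 461, 566, 349 and 394 counts. Naïve libraries lay above primed libraries, and the log2 fold change was -0.77 (SE 0.16, adjusted p = 3.91e-05). Antisense genes inside the span, ENSG00000264475 and ENSG00000265069, held 21.6% and 14.3% of its count. The call was lost with library size (-0.14, adjusted p = 0.449) and for the shortest transcript at the 3′ end (-0.44, adjusted p = 0.119), and on a span with no other gene the value was -1.54.

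LAMB1, the most abundant laminin chain per kilobase in either state, had 954, 1381, 375 and 470 counts. Both naïve libraries were above both primed libraries, and the log2 fold change was -1.77 (SE 0.16, adjusted p = 5.01e-13), or -1.13 with library size. The neighbour DLD reaches into the LAMB1 span and had more counts than LAMB1, and on a span with no other gene the value was -1.57. LAMC1, the common gamma chain, had 415, 642, 295 and 362 counts and a log2 fold change of -0.98 (SE 0.17, adjusted p = 2.04e-06). LAMC1-AS1, inside the span, held 27.2% of its count. With library size LAMC1 was at -0.35 (adjusted p = 0.0855), and with no other gene in the span at -1.46.

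LAMA4 and LAMB3 fell further. LAMA4, an alpha chain of vessel and muscle basement membranes, had 111, 106, 24 and 36 counts, without overlap, and a log2 fold change of -2.16 (SE 0.27, adjusted p = 3.44e-09). LAMA4-AS1 and ENSG00000281613, across the span on the other strand, had 85.2% and 90.3% as many counts, and a span with no other gene gave -2.26. LAMB3, a beta chain of the laminin that anchors epidermis, had only 21, 16, 4 and 4 counts and a log2 fold change of -2.48 (SE 0.52, adjusted p = 5.66e-05). MIR4260 inside that span held 33.3% of its count.

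The remaining laminin chains were higher in primed hESCs or were not called. LAMA2, the alpha chain of muscle basement membrane, had 106, 153, 328 and 322 counts and a log2 fold change of 1.03 (SE 0.19, adjusted p = 5.90e-06). The libraries did not overlap, but BMPR1AP1 inside the span held 16.9% of its count and the shortest transcript at the 3′ end gave 0.14 (adjusted p = 0.796). ENSG00000226149, which reaches across an end of LAMA2, had 10.6% as many counts. LAMB2, a beta chain of synaptic and glomerular membranes, had 45, 45, 124 and 147 counts and a log2 fold change of 1.28 (SE 0.25, adjusted p = 1.47e-05). LAMC3, a gamma chain, had 34, 37, 143 and 132 counts and rose by 1.64 (SE 0.26, adjusted p = 3.16e-07). LAMA3, at 5, 14, 45 and 75 counts, rose by 2.34 (SE 0.39, adjusted p = 1.36e-06) from near the floor, and by 3.17 without naïve rep2.

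LAMA5, the alpha chain of laminin-511, on which hESCs are often grown, gave no call. Its LAMA5-211 transcript had 717, 560, 810 and 753 counts, which overlapped between the states in CPM, at a log2 fold change of -0.03 (SE 0.16, adjusted p = 0.895). ADRM1-204, across that span, had 97.1% as many counts, so LAMA5 cannot be told from ADRM1 there. The canonical LAMA5 transcript had 97, 129, 169 and 248 counts and a log2 fold change of 0.57 (adjusted p = 0.0112), and a span with no other gene gave 0.24 (adjusted p = 0.472).

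Fibronectin, a glycoprotein that binds integrins and collagen, was the member with the most counts. FN1 had 1507, 1964, 785 and 833 counts, with both naïve libraries above both primed libraries, and a log2 fold change of -1.40 (SE 0.15, adjusted p = 3.92e-11), or -0.77 with library size. NID1, which joins laminin to type IV collagen, had 176, 216, 185 and 191 counts and was not called, at -0.36 (SE 0.19, adjusted p = 0.0767). NID2, its relative, had 35, 32, 103 and 82 counts and rose by 1.16 (SE 0.28, adjusted p = 0.000321). RTRAF, across an end of NID2, had far more counts than NID2, and a span without another gene gave 1.73.

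Both proteoglycans rose. HSPG2 had 119, 147, 329 and 463 counts, without overlap, and a log2 fold change of 1.27 (SE 0.19, adjusted p = 1.01e-07), although a span with no other gene gave 0.62 (adjusted p = 0.146), and LDLRAD2 across its end had 20.0% as many counts. AGRN, which organises the neuromuscular synapse, had 30, 42, 159 and 240 counts and a log2 fold change of 2.16 (SE 0.25, adjusted p = 3.97e-10). ENSG00000242590, on the same strand inside AGRN, held 86.6% of its count, and a span with no other gene gave 1.68 (adjusted p = 0.00586).

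The collagens of the basement membrane zone were led by COL18A1, the source of endostatin. It had 53, 75, 363 and 516 counts, all primed above all naïve, and rose by 2.47 (SE 0.21, adjusted p = 3.37e-14). SLC19A1-212, across an end, had 83.0% as many counts, and no COL18A1 transcript was free of another gene. COL15A1 had 12, 7, 6 and 14 counts, overlapping, at -0.24 (adjusted p = 0.692). COL7A1, the anchoring fibril collagen of skin, had 1, 3, 8 and 8 counts and was not tested. Network-forming COL8A1 (5, 6, 29 and 39 counts) rose by 2.30 (adjusted p = 2.41e-05) and COL8A2 (5, 5, 31 and 21 counts) by 2.05 (adjusted p = 0.000293). Among the chains of type VI collagen, which forms beaded filaments, COL6A2 (56, 62, 167 and 231 counts) rose by 1.44 (adjusted p = 3.58e-07), while COL6A1 (166, 215, 202 and 276 counts) overlapped between states at 0.02 (adjusted p = 0.924). COL6A3 (0, 7, 17 and 18 counts) rose by 1.99 (adjusted p = 0.00344), but its call was lost without naïve rep1 (1.07, adjusted p = 0.105) and by DESeq2 (2.01, adjusted p = 0.0891).

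Of the 10 fibrillar collagens, 7 rose, none fell, and 3 were not called, beside 37.4% higher and 32.6% lower of all genes tested. Their summed level was 9.23 and 8.07 CPM in naïve hESCs against 80.4 and 82.6 CPM in primed hESCs. Of these sums COL1A1 held 1.56 and 1.17 against 32.2 and 38.3 CPM, and COL1A2 0.39 and 0.666 against 24.0 and 19.7 CPM. Most of the difference was thus that of COL1A1 and COL1A2. COL1A1, a chain of type I collagen, had 36, 30, 948 and 1174 counts. Primed libraries were far above naïve libraries, with a log2 fold change of 4.69 (SE 0.21, adjusted p = 1.43e-23), and 5.33 with library size. COL1A2, the other chain, had 9, 17, 706 and 605 counts and a log2 fold change of 5.34 (SE 0.25, adjusted p = 1.05e-22). ENSG00000249406, across COL1A1, had 28.6% and ENSG00000285090, across COL1A2, 49.0% as many counts, and spans with no other gene gave 5.38 and 5.51.

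COL11A1, a fibril-nucleating chain of cartilage, had 7, 22, 203 and 213 counts and rose by 3.53 (SE 0.30, adjusted p = 4.74e-14), or by 4.49 without naïve rep2. COL27A1, also of cartilage, had 48, 51, 190 and 202 counts and rose by 1.68 (SE 0.23, adjusted p = 1.72e-08). COL5A3 had 9, 5, 86 and 74 counts and rose by 3.19. Where the naïve libraries together held 1 to 3 counts, the ratio of counts scaled with TMM is given with its counting interval. COL2A1, the main cartilage collagen, had 3 naïve against 74 primed counts, a ratio of 19.9 (95% exact interval 6.56 to 98.9), and COL5A2 had 2 against 172, a ratio of 69.5 (19.0 to 579). COL3A1 (35, 18, 37 and 43 counts), COL5A1 (62, 57, 70 and 88 counts) and COL11A2 (4, 4, 10 and 10 counts) were not called, at 0.28, 0.10 and 0.99. Each of the last 3 passed the test with library size. MIR3606 inside COL3A1 held 13.5% of its count.

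Of the 8 FACIT collagens tested, 6 rose and COL9A3 fell, beside 37.4% higher and 32.6% lower of all genes tested. COL14A1 had 10, 10, 287 and 271 counts and rose by 4.48 (SE 0.29, adjusted p = 5.36e-18). COL9A3, a chain of cartilage type IX collagen, went the other way, with 165, 123, 62 and 57 counts, no overlap, and a log2 fold change of -1.59 (SE 0.24, adjusted p = 1.62e-07). TCFL5, across an end of COL9A3, had more counts than COL9A3, and a span with no other gene gave -1.75. COL9A1, a partner chain of COL9A3, had 1 naïve against 190 primed counts, a ratio of 154 (95% exact interval 27.2 to 6100), and ENSG00000253809 inside it held 58.6% of its count. COL22A1 (3, 4, 39 and 46 counts) rose by 3.25, or by 1.83 for the shortest transcript at the 3′ end (adjusted p = 0.01), and COL16A1 (1, 4, 15 and 27 counts) by 2.71 (2.12 without naïve rep1 and 3.87 without naïve rep2), while PEF1-AS1, across COL16A1, had many more counts than COL16A1. COL9A2 (3, 6, 12 and 21 counts) rose by 1.54 (adjusted p = 0.0103), a call lost by DESeq2 (adjusted p = 0.155), without naïve rep1 (adjusted p = 0.0794) and without primed rep2 (adjusted p = 0.199). COL21A1 (32, 33, 72 and 76 counts) rose by 0.88 (adjusted p = 0.00581), a call lost for the shortest transcript at the 3′ end (0.18) and by DESeq2 (0.83, adjusted p = 0.0690). COL19A1 (36, 38, 65 and 66 counts) was not called at 0.52 (adjusted p = 0.0992). LMBRD1, across its end, had far more counts than COL19A1, and on a span with no other gene COL19A1 was lower, at -1.29 (adjusted p = 0.0203). COL12A1 (7, 6, 9 and 16 counts) was not tested.

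The transmembrane collagens divided as well. COL17A1, the collagen of the epithelial hemidesmosome, had 61, 53, 8 and 2 counts and the largest fall of any member called, with a log2 fold change of -3.78 (SE 0.43, adjusted p = 2.55e-10). Without primed rep1 it was -5.08 and without primed rep2 -3.09. On a span with no other gene (40, 32, 1 and 0 counts) it was -6.09 and for the shortest transcript at the 3′ end (40, 31, 2 and 0 counts) -5.30, fitted on very few primed counts. COL13A1 had 1 naïve against 86 primed counts, a ratio of 69.5 (95% exact interval 12.1 to 2780). COL23A1 had 87, 107, 177 and 212 counts and rose by 0.70 (SE 0.21, adjusted p = 0.00272), a call lost on a span with no other gene (0.71, adjusted p = 0.0938). COL26A1, whose protein is secreted, had 99, 102, 440 and 514 counts and rose by 1.94 (SE 0.18, adjusted p = 1.45e-12).

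COL25A1, another transmembrane collagen, had a higher count over its span as a whole in primed hESCs and was the one member with a call for isoform usage. Of 463 isoforms of 48 members tested, 3 were called (0.648%, against 0.556% of all isoforms tested), with an adjusted p under 0.05 by edgeR's diffSpliceDGE and an isoform fraction that moved by more than 0.1. The fraction is the count of a transcript divided by its exonic length, relative to the sum of such values over the gene's tested transcripts. Short transcripts weigh more in it and an alignment can count for several, so it is not a share of molecules. The fraction is undefined where a library held 0 counts over all of the gene's tested transcripts, as naïve rep1 did for COL4A4. Isoforms of such a gene could not be called, although they are among those tested. The gene on chromosome 4 had 61, 74, 170 and 226 counts over COL25A1-203 and a log2 fold change of 1.24 (SE 0.22, adjusted p = 3.50e-06). COL25A1-207, a short transcript of 3 exons at the 3′ end (chr4:108813699-108824219), fell from 73.1% to 27.3% of the gene's isoform fraction (adjusted p = 1.50e-05), with 43, 52, 28 and 34 counts. COL25A1-202 (chr4:108823876-109302367), which covers the rest of the gene, rose from 4.19% to 19.0% (adjusted p = 0.00456), with 20, 23, 148 and 195 counts. The other isoform called has the same end and the same counts, and rose from 3.92% to 17.8%.

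The alignments of COL25A1 were therefore split by position. Inside the COL25A1-202 span there were 20 and 23 alignments in naïve hESCs against 148 and 195 in primed hESCs. The part of the gene that misses this span, the 15151 bases at the 3′ end, held 41 and 51 in naïve hESCs against 22 and 31 in primed hESCs. That part took 67.2% (95% Wilson interval 54.7 to 77.7) and 68.9% (57.7 to 78.3) of the COL25A1 alignments in naïve hESCs, and 12.9% (8.70 to 18.8) and 13.7% (9.83 to 18.8) in primed hESCs, so that the intervals did not overlap between states. The level inside the span was 0.883 ± 0.0247 CPM in naïve and 5.68 ± 0.940 CPM in primed hESCs, 6.43-fold higher, and that of the 3′ part was 1.89 ± 0.156 and 0.879 ± 0.186 CPM. With library size the 3′ part differed less, at 1.51 ± 0.191 and 1.10 ± 0.231 CPM. Intervals cover counting error only, and the split was chosen after the isoform values were seen.

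**Figure D4:**
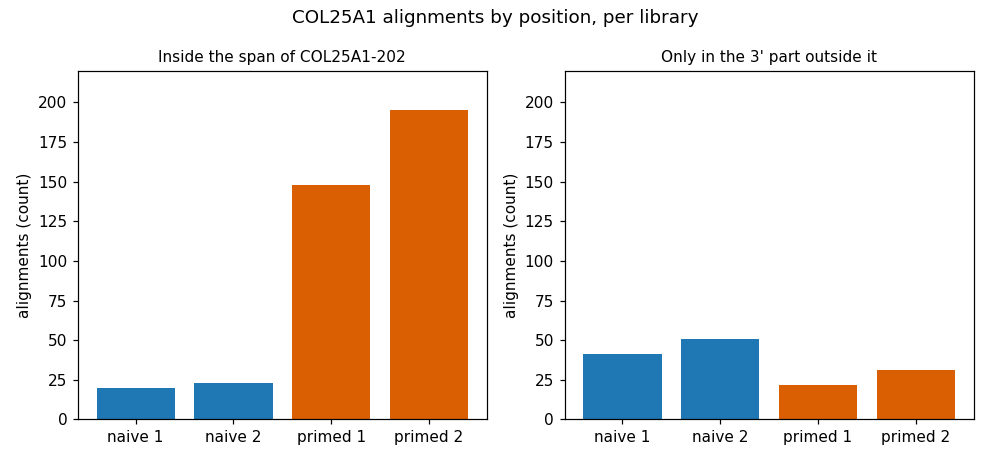
Alignments (count, bars from 0) of COL25A1 in each library, inside the span of COL25A1-202 (left) and only in the 3′ part outside it (right), naïve libraries in blue and primed libraries in orange. The left bars rise from 20 and 23 to 148 and 195, and the right bars go from 41 and 51 to 22 and 31.

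Single transcripts of 2 further members passed the adjusted p but not the threshold on fraction. COL4A2-207, over the 5′ part of COL4A2, moved from 13.6% to 8.29% (adjusted p = 0.0286), and COL4A5-204, over the 5′ part of COL4A5, from 21.9% to 13.8% (adjusted p = 0.0122).

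Genes that make, bind or cut the matrix were examined in 5 lists. Of 22 genes that modify and process collagen, 11 rose (50.0%, against 37.4% of all genes tested) and 6 fell (27.3%, against 32.6%). P3H2, a prolyl 3-hydroxylase that acts on type IV collagen, had 2, 5, 596 and 829 counts and rose by 7.31 (SE 0.31, adjusted p = 2.79e-24), and PCOLCE, an enhancer of procollagen cleavage, rose by 1.42. P4HB, a subunit of prolyl 4-hydroxylase, fell by 1.56 on the log2 scale and PLOD3, a lysyl hydroxylase, fell by 1.08 for PLOD3-207, whereas its canonical transcript was not called, at -0.33 (adjusted p = 0.164). Of 6 cross-linking enzymes tested, 5 rose (83.3%), among them the lysyl oxidases LOXL2 (1.34) and LOXL3 (0.99). The transglutaminase TGM2 fell by 4.25 (253, 272, 18 and 16 counts), 1 gene of the 6 (16.7%). Of 10 proteases and inhibitors tested, 3 rose (30.0%) and 2 fell (20.0%), both below the shares of all genes tested. MMP16 rose by 6.91 (8, 4, 799 and 1024 counts) and MMP15 by 0.72. MMP14 fell by 2.77 (426, 520, 82 and 89 counts) and TIMP4 by 1.16.

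Of 16 receptors for laminin and collagen, 6 rose and 6 fell, 37.5% each way, which is near the shares of all genes tested. ITGA7 was counted as not called from ITGA7-221 (607, 541, 561 and 697 counts), whereas its canonical transcript (5, 8, 81 and 89 counts) rose by 3.37 (adjusted p = 1.45e-12). ITGA6, the integrin alpha 6 chain that binds laminin, had 108, 162, 612 and 655 counts and rose by 1.93, and the syndecan SDC2 rose by 2.02. ITGB4, the partner of ITGA6 in hemidesmosomes, had 190, 206, 28 and 41 counts and fell by 2.83, and SDC4 fell by 2.71. ITGB1, the common beta chain, was not called at -0.24 (adjusted p = 0.170). Of 15 other basement membrane and matricellular genes, 8 rose (53.3%), with FREM2 at 4.58 and HMCN1 at 1.62. Another 5 fell (33.3%, near the share of all genes), with TINAGL1 by 4.41 (654, 859, 56 and 31 counts) and VWA1 by 2.61. Over the 5 lists together 33 of the 69 genes tested rose (47.8%) and 20 fell (29.0%, near the share of all genes). With library size in place of TMM these became 44 and 11, while 56.2% of all genes tested were higher and 16.3% lower.

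Lists of markers of other cell types differed in how they moved with the states. The trophoblast list, most of it the hormone subunit CGA, summed to 1640 and 1970 CPM in naïve hESCs against 4.28 and 3.39 CPM in primed hESCs, with 5 of 7 genes lower in primed hESCs, and the amnion list to 59.3 and 61.5 against 6.35 and 4.76 CPM, with 5 of 5 lower. With 2 states, every gene called shares its direction with many others, so a shared direction does not tie a member to a cell type. The neural list rose from 1.91 and 2.27 to 13.4 and 12.8 CPM, with 2 of 3 genes higher and the third at too few counts to be tested. Most of that sum was NES (1.78, 2.11, 12.8 and 12.4 CPM). PAX6 was called from PAX6-243 (3, 4, 18 and 10 counts), whereas its canonical transcript had only 2, 0, 1 and 4 counts. The primitive endoderm list summed to 3.82 and 4.86 against 6.96 and 7.63 CPM and went both ways. APOA1 (3, 4, 118 and 133 counts) and PDGFRA (1, 13, 44 and 33 counts) rose by 4.81 and 2.14, while GATA6 (77, 99, 16 and 37 counts) fell by 2.03. Fibroblasts are known for type I collagen. The fibroblast and mesenchyme list was at 2.21 and 3.33 against 2.31 and 2.90 CPM, and 3 of its 6 genes had enough counts to be tested. These went both ways, since TWIST1 (29, 55, 4 and 8 counts) fell by 3.08 while POSTN (2, 2, 12 and 14 counts) rose by 2.33 and PDGFRB (18, 28, 43 and 52 counts) by 0.74. PRRX1 (0, 0, 4 and 10 counts), LUM (1, 0, 5 and 4 counts) and DCN (1, 0, 0 and 1 counts) were not tested. The mesendoderm list was at 0.823 and 0.822 against 1.32 and 1.08 CPM, with 2 genes tested and neither called. In the endothelium list CDH5 (118, 132, 2 and 0 counts) fell by 7.09, TEK (2, 4, 80 and 85 counts) rose by 4.42, and PECAM1 was not tested. The part of these cell types in the results was not tested, and in bulk libraries fewer cells of a type and less RNA per cell cannot be told apart.

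For 21 of the 53 members, another gene whose span overlaps held over 10% as many counts as the member. A transcript overlapping no other gene could be tested for 37 of the members called. For 12 of these the counts were those already used, and of the 25 with other counts 23 kept their call and direction. The shortest transcript at the 3′ end could be tested for 36 of the members called. For 16 the counts were those already used, and of the 20 with other counts 17 kept their call and direction. Both alternatives were chosen after the data were seen.

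**Figure D5:**
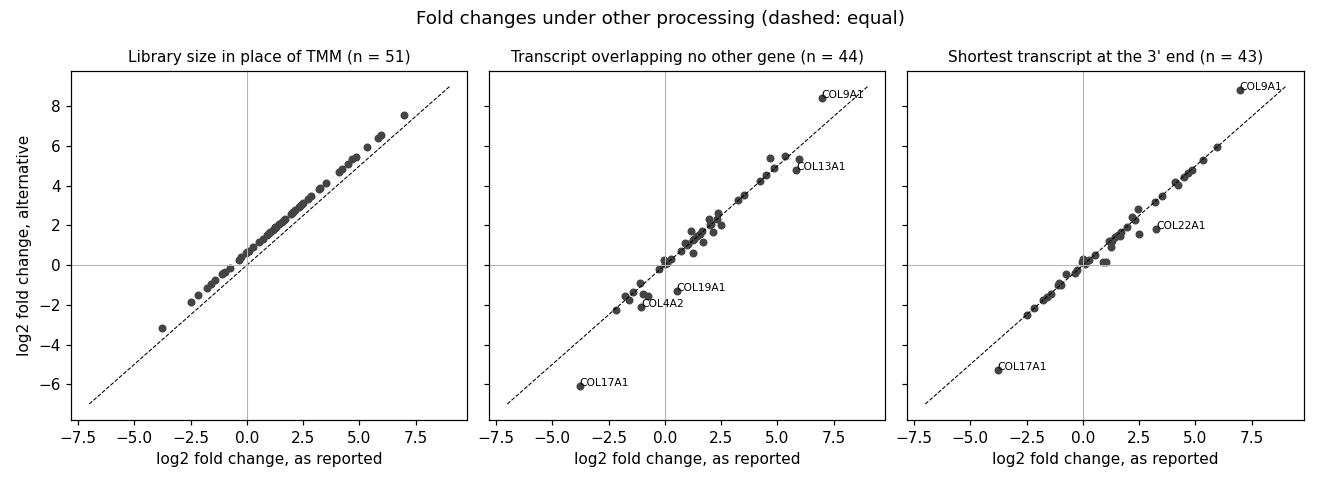
log2 fold change of members as reported (horizontal axis) and under another processing (vertical axis), with a point per gene, a dashed line of equal values and names where the values differ by more than 1. Library size moves the 51 points up together, and COL19A1, COL4A2, COL17A1, COL9A1 and COL13A1 leave the line when only a transcript free of other genes is used.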

How the data were processed

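RNA of naïve and primed H1 hESCs, 2 libraries each, was sequenced as Nanopore cDNA. The authors aligned reads with minimap2 to GRCh38 and deposited raw counts of alignments per Ensembl release 105 transcript, made with featureCounts 2.0.0. A transcript was counted over its whole span, introns included and strand ignored, and an alignment counted for every transcript it overlapped and at every place it aligned. The values thus count alignments and not molecules. Totals were 129276054 to 161548901 counts per library.

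Transcripts were matched by identifier to GENCODE 44 (242542 of 244825; the rest held 1.0% of counts). A gene took the count of its transcript with the largest mean count. A gene was tested if 2 or more libraries held 10 or more counts, with edgeR 4.0.16 in R 4.3.3 (TMM, quasi-likelihood test, Benjamini-Hochberg over all 27633 genes, two-sided), and isoforms with diffSpliceDGE over 159577 isoforms. IsoformSwitchAnalyzeR was not used here. Each SE was derived from the quasi-likelihood test, as the absolute log2 fold change divided by the square root of its F statistic. Alternatives were DESeq2 1.42.0, library size, other filters and gene values, a replicate block and each library left out. Replicate libraries differed beyond sampling noise (chi-square per degree of freedom 14.2 in naïve, 8.80 in primed). On simulated counts with 200 genes changed 4-fold, edgeR recovered 100% with 15 false calls among 27135 genes tested, and DESeq2 98% with 5. The simulation set a dispersion of 0.02, and the genes changed had a mean count of at least 50 and went up and down equally often. In the data 70.0% of genes were called. The simulation therefore cannot speak for calls at low counts or where the assumption of TMM fails.

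Per-library counts were given for up to 3 members of each family with the highest level per kilobase, both genes of head-to-head type IV pairs, and the 5 largest changes in each direction, and here for the other members too. From each pathway list, up to 2 genes per direction were named, and ITGB1, ITGA7 and the markers given one by one were added after their values were seen. Members and lists were chosen with earlier results of these data known. Tables were handled with pandas 2.3.3 and scipy 1.17.1 in Python 3.11.15.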

Additional observations from a re-analysis of the deposited data

How the results depend on the processing

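The number of members called ranged from 33 to 46 over the alternatives, with 24 to 39 higher and 7 to 10 lower in primed hESCs. The alternatives differed in how many members could be tested and in the share of all genes called. The range alone therefore does not measure how firm the calls are. Library size in place of TMM gave 39 members higher and 7 lower, beside 15525 (56.2%) and 4512 (16.3%) of all genes tested. It gave 11 pathway genes lower and ended the calls of LAMA1, LAMC1 and COL4A1. A transcript overlapping no other gene gave 9363 genes called, 4967 higher and 4396 lower, where fewer genes could be tested. With a log2 fold change beyond 1, 5120 genes were lower, and 34 pathway genes were called, 12 of them lower. Isoform usage gave 6809 calls with no threshold on the fraction and 493 to 557 with a library left out, and members with an isoform called numbered 3 with no threshold and 2 with identical transcripts collapsed. The replicate block left the members at 43 calls, 33 higher and 10 lower, and changed no member's call, and gave 19691 genes (10471 higher, 9220 lower), 53 pathway genes (33 and 20) and 789 isoforms. Deviations of same-numbered libraries correlated at 0.0714, so the numbers were not taken as a pairing. Signs turned among members that were not called, and the cause was not tested. LAMA5 went to 0.57 with the canonical transcript, 0.08 with at least 50 counts and with summed counts, 0.62 with library size, 0.18 at the 3′ end, 0.24 with no other gene, and ran from -0.26 to 0.24 with a library left out. With library size NID1 went to 0.27 and COL15A1 to 0.39. With a library left out, COL15A1 ran from -0.93 to 0.27, COL6A1 from -0.19 to 0.20, COL3A1 from -0.19 to 0.91 and COL5A1 from -0.05 to 0.23. COL6A1 was at -0.03 with DESeq2, and COL19A1 at -0.39 with summed counts and -1.29 with no other gene. Members with under 20 counts in a state rest on few alignments.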
